A study of Mus musculus with 2 samples.

Results

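Tcf7-positive Cxcr5-negative CD4 cells made up 114 of the 303 CD4 cells kept from spleens of mice given an antibody against IL-2 after an allogeneic transplant, 37.6% (32.2 to 43.3%). They were chosen by detection, read as a deposited value above 0.7. A cell was kept with 200 or more detected genes of the 2000 in the file, which left 1340 of 1551 cells. CD4 cells had Cd4 and neither Cd8a nor Cd8b1. The 114 cells had Tcf7 and no Cxcr5, and the other 189 CD4 cells were 88 with Cxcr5, called Cxcr5-positive here, and 101 with neither Cxcr5 nor Tcf7, called Tcf7-negative. The series held 3239 cells in all, so the 114 cells were a small share of it. Tcf7, Cxcr5, Cd4, Cd8a and Cd8b1 chose the cells, and their levels are a description of that choice.

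The cells were sequenced from the spleens of lethally irradiated WT BALB/c recipients of spleen and bone marrow cells from WT C57BL/6 donors. Recipients had an anti-IL-2 monoclonal antibody from day 0 to day 6, or tacrolimus, an inhibitor of calcineurin, over the same days. Spleen cells were isolated on day 6 and the libraries were made with a droplet 5′ gene expression kit. There was 1 library per treatment, with the number of pooled mice not given in the sources used here, and no untreated group was analysed here. Cells of 1 library are not replicates, so no difference below has a test. Each share of cells has an exact 95% binomial interval, and each ratio of shares an exact 95% interval, both of which cover counting error only.

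Tcf7 encodes TCF-1, a DNA-binding partner of beta-catenin in the Wnt pathway that is needed for T cell development. In mature T cells TCF-1 is kept in naive and memory cells and in stem-like cells that renew themselves, and it is lost as effector cells arise. In CD4 cells it favours the follicular helper programme, in which CXCR5 guides cells to B cell follicles, and IL-2 signalling through STAT5 opposes that programme. CD4 cells with TCF-1 but without CXCR5 therefore stand outside the follicular helper definition while sharing one of its regulators. Here both genes were read as detected RNA, so a cell without a Cxcr5 detection may still express it.

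The labelled T cell type was checked with markers that the choice did not use. The CD3 genes were not analysed here, and of 11 T cell markers only Cd4 and Cd5 were measured. Cd5, a surface receptor of T cells, was detected in 91 of the 114 cells (79.8%), against 75 of 88 Cxcr5-positive and 90 of 101 Tcf7-negative cells. Of 8 measured B cell markers, 7 were in 0 of the 114 cells, among them Cd79a and Ms4a1, and the erythroid, myeloid and platelet lists had a median of 0 detected genes per cell in the 114 cells. A single cell held 11 of 15 erythroid-list genes, and 2 of the 114 cells (1.75%) held 2 or more markers of other lineages, against 1 of 88 Cxcr5-positive and 5 of 101 Tcf7-negative cells. Foxp3, the lineage factor of regulatory T cells, was in 0 of 114 cells, where 3 cells would be 2.63%, and in 0 of 88 Cxcr5-positive and 4 of 101 Tcf7-negative cells.

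Depth differed between the groups and touches every ratio below. The median number of detected genes per cell was 262.5 in the 114 cells, 280 in the Cxcr5-positive cells and 321 in the Tcf7-negative cells. The anti-IL-2 values had been batch-shifted by the authors' integration, so UMI totals per cell were not read and cells could not be thinned to 1 depth. In place of thinning, results are repeated with the comparison cells weighted to the genes per cell of the 114 cells, and with the shift estimated and removed. In 65 cells without CD4 or CD8 genes and with 2 or more B, plasma, myeloid or erythroid markers, which should lack T cell genes and had a median of 349 detected genes, Tcf7 and Cxcr5 were in 0 cells, where 3 cells would be 4.62%. Tcf7 was in 7 of these 65 cells (10.8%) and Cxcr5 in 9 (13.8%) with the shift removed. The 2 libraries shared 4 cell barcodes, and 0 of these belonged to the 114 cells.

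Cells just inside and just outside the Tcf7 boundary were few on the deposited scale. Among the 215 Cxcr5-negative CD4 cells, the highest Tcf7 value left out was 0.604 and the lowest value included was 0.747, with 8 cells between 0.5 and 0.7 and 5 between 0.7 and 0.9. Values of Tcf7 in the 114 cells ran up to 3.61 with a median of 1.93, on the authors' shifted natural log scale. With the shift removed, 7 of the 114 cells no longer had a Tcf7 detection and 27 of the 101 Tcf7-negative cells gained one. The whole rule on those values found 124 cells, of which 93 were among the 114. Values given below with the shift removed keep the groups as chosen on the deposited values. Among Tcf7-positive CD4 cells no undetected Cxcr5 value lay above 0, and the lowest detected value was 0.751. Tcf7 itself was also common among Cxcr5-positive cells, with 74 of 88 cells (84.1%), so the split by Cxcr5 divides the 188 Tcf7-positive CD4 cells.

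The first comparison set the 114 cells against all 189 other CD4 cells. A gene was called in more cells when its share was 1.5-fold higher or more, and in fewer cells when it was 1.5-fold lower or more, among genes found in at least 5% of the pooled cells. Of 842 such genes, 19 were in more of the 114 cells (2.26%) and 228 in fewer (27.1%), and the median log2 ratio over all of them was -0.23. Against the Tcf7-negative cells alone the count in more cells was 76, and against the Cxcr5-positive cells alone it was 64. With the comparison cells weighted for genes per cell, 121 rather than 228 genes were in fewer cells. With the batch shift removed, 21 of 834 genes were in more cells (2.52%) and 248 in fewer (29.7%), and 18 of the 19 and 210 of the 228 genes kept their call.

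The genes with the highest ratios over all other CD4 cells were mostly rare ones. Fam43a was detected in 17 of the 114 cells (14.9%, 8.93 to 22.8%), against 12 of 189 other CD4 cells (6.35%), a ratio of 2.35 (1.06 to 5.39). Rsad2, which encodes the antiviral enzyme viperin, was in 17 and 13 cells, a ratio of 2.17 (0.992 to 4.85). Myb, a transcription factor gene of progenitor cells, had the same ratio of 2.17 and was likewise in 17 and 13 cells. For Rsad2 and Myb the interval of the ratio included 1.

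The other genes of that end mixed several functions. Hexa, a lysosomal enzyme gene, was in 19 and 15 cells, and Pkp4, a junction protein gene, in 21 and 17 cells. Ahr, a ligand-activated transcription factor, was in 11 of the 114 cells (9.65%) and 9 of the other 189 (4.76%), and it was in 9.23% of the 65 cells of other lineages. Zbtb20 (18 and 15 cells), Nrn1 (13 and 11), the cytokine gene Tnf (12 and 11), Ccr7 (42 and 40), the pro-death gene Bcl2l11 (30 and 29) and the sialyltransferase gene St6gal1 (34 and 33) completed the 12. Among cells with fewer than 3 G2 and M phase genes, Zbtb20 and Nrn1 had log2 ratios of -0.01 and -0.09, so their direction was lost there.

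At the low end, 9 of the 12 genes belong to cell division or DNA repair, among them Kif20a, Nek2, Hmmr, Plk1 and Aurka. Kif20a, a mitotic kinesin gene, was in 3 of the 114, 3 Cxcr5-positive and 27 Tcf7-negative cells, and Aurka, a mitotic kinase gene, in 4, 2 and 24 cells. The other 3 were Entpd1, Cd55 and Mt3. Entpd1, which encodes the ectonucleotidase CD39, was in 1 of the 114 cells (0.877%), in 0 of 88 Cxcr5-positive and in 16 of 101 Tcf7-negative cells (15.8%), and it was in 46.2% of the 65 cells of other lineages. Cd55, a complement regulator gene, was in 2 of the 114, 3 Cxcr5-positive and 17 Tcf7-negative cells. Mt3, a metallothionein gene, was in 3 of the 114 cells (2.63%), against 15 of 88 Cxcr5-positive (17.0%) and 12 of 101 Tcf7-negative cells (11.9%).

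**Figure D1:**
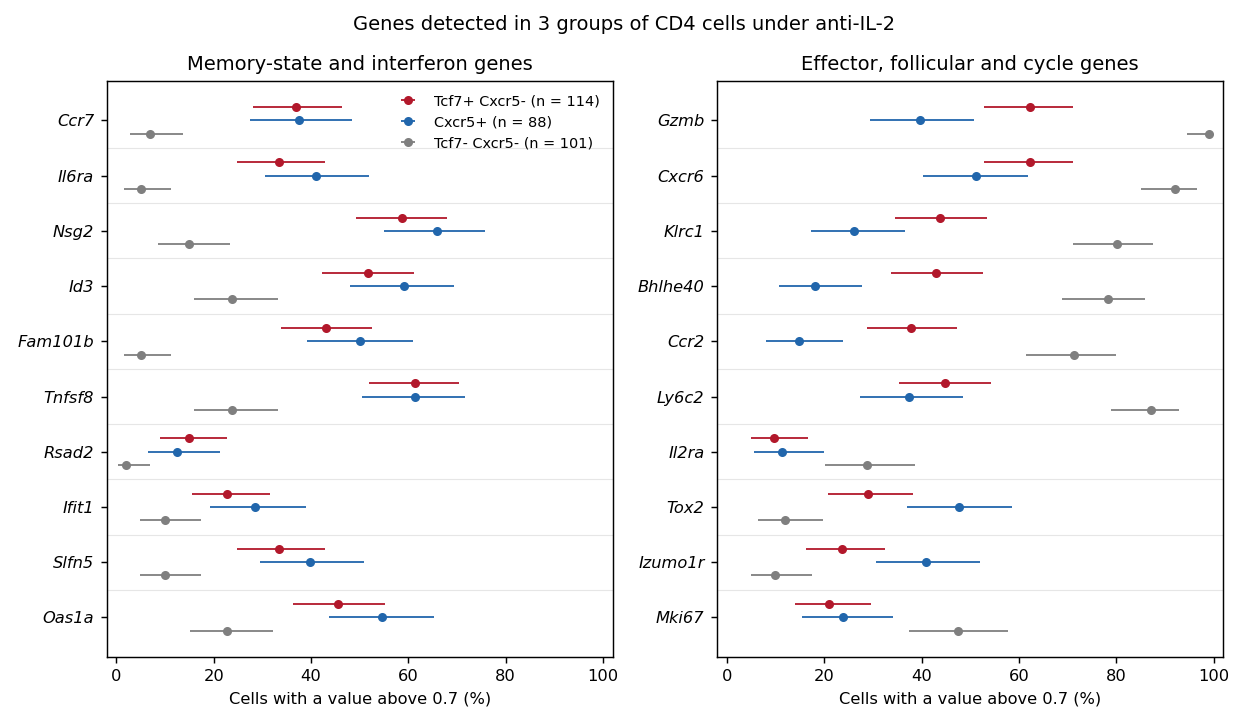
Share of cells with a value above 0.7 (x axis, percent) for 20 genes (y axis) in Tcf7-positive Cxcr5-negative, Cxcr5-positive and Tcf7-negative Cxcr5-negative CD4 cells under anti-IL-2, with exact 95% intervals as bars. For Ccr7 the Tcf7-positive Cxcr5-negative cells sit at 36.8%, near the Cxcr5-positive cells at 37.5% and above the Tcf7-negative cells at 6.93%, while for Gzmb their 62.3% lies between 39.8% and 99.0%.

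Genes of naive and memory T cells were in more of the 114 cells than of the Tcf7-negative cells, at shares close to those of the Cxcr5-positive cells. Ccr7, the receptor that draws T cells into lymphoid tissue, was in 42 of the 114 cells (36.8%, 28.0 to 46.4%), against 7 of 101 Tcf7-negative cells (6.93%, 2.83 to 13.8%), a ratio of 5.32 (2.37 to 14.0). In Cxcr5-positive cells it was in 33 of 88 (37.5%), about as often as in the 114 cells. Il6ra, a receptor chain for IL-6, was in 38 of the 114 cells (33.3%) and 5 of 101 Tcf7-negative cells (4.95%), a ratio of 6.73 (2.65 to 21.9). It was in 36 of 88 Cxcr5-positive cells (40.9%) and in 12.3% of the 65 cells of other lineages.

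Nsg2 and Id3 followed the same order. Nsg2, a vesicle protein gene, was in 67 of the 114 cells (58.8%), 58 of 88 Cxcr5-positive (65.9%) and 15 of 101 Tcf7-negative cells (14.9%). Id3, which encodes an inhibitor of E-protein transcription factors, was in 59 of the 114 cells (51.8%), 52 Cxcr5-positive (59.1%) and 24 Tcf7-negative cells (23.8%). Actn1, an actin crosslinker gene, was in 63 of the 114, 47 Cxcr5-positive and 33 Tcf7-negative cells. For all 3 genes the shares in the 114 cells and the Cxcr5-positive cells had overlapping intervals, and the Tcf7-negative share lay below both.

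As a list, 5 of the 7 naive and memory genes at the minimum share were in more of the 114 cells than of the Tcf7-negative cells, none was in fewer, and the list median log2 ratio was 1.10. Over all 850 genes of that comparison 8.94% were in more cells and 37.1% in fewer, with a median of -0.32. Against Cxcr5-positive cells the list had 0 of 8 genes in more cells and 1, Dapl1, in fewer, with a median of -0.17, beside 8.17% of all 783 genes in more cells and 13.7% in fewer, and a median of -0.10. Il7r, a receptor for a survival cytokine, was in 87 of the 114 cells (76.3%), 56 Cxcr5-positive (63.6%) and 54 Tcf7-negative cells (53.5%), but with the shift removed the shares were 41.2%, 20.5% and 48.5%, so its order over the groups was not stable.

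With cells weighted for genes per cell, 5 of 7 naive and memory genes were in more of the 114 than of the Tcf7-negative cells, with a median of 0.95. Of all 850 genes 13.6% were then in more cells and 24.4% in fewer, with a median of -0.06. Among cells with fewer than 3 G2 and M phase genes, 40 of the 114 and 16 of the Tcf7-negative cells, Ccr7 was in 35.0% and 12.5% and Il6ra in 47.5% and 18.8%. There Nsg2 was in 67.5% and 56.3% and Id3 in 57.5% and 50%, ratios under 1.5, so these calls were lost among the 16 cells. The list count there was 4 of 8, beside 26.2% of all 684 genes in more cells.

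Across the 215 Cxcr5-negative CD4 cells, the genes whose detection went most closely with that of Tcf7 were Nsg2 (phi coefficient 0.451), Fam101b (0.438), Lamp1 (0.411), Rgs10 (0.391), Tnfsf8 (0.379), Matk (0.372), Ccr7 (0.356), Il6ra (0.354), Ltb (0.290) and Id3 (0.287). Phi measures how often detections coincide in the same cells, and these cells share 1 library and 1 integration, so it is given as a description. Fam101b, an actin regulator gene, was in 49 of the 114 cells (43.0%), 44 of 88 Cxcr5-positive (50%) and 5 of 101 Tcf7-negative cells (4.95%). Tnfsf8, which encodes the ligand of CD30, was in 70 cells (61.4%), 54 cells (61.4%) and 24 cells (23.8%). Lamp1, a lysosome membrane protein gene, was in 91 (79.8%), 77 (87.5%) and 40 cells (39.6%), although in 63.1% of the 65 cells of other lineages.

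Matk departed from that pattern. Matk, a kinase gene that restrains Src-family kinases, was in 34 of the 114 cells (29.8%, 21.6 to 39.1%), against 45 of 88 Cxcr5-positive cells (51.1%, 40.2 to 62.0%), a ratio of 0.583 (0.362 to 0.931). It was in 2 of 101 Tcf7-negative cells (1.98%). The 114 cells thus lay between the other groups for this gene.

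In mm10, with GENCODE M21 annotation, Tcf7 lies on chromosome 11 from 52252371 to 52283014, Ccr7 on chromosome 11 from 99144196 to 99155077, Il6ra on chromosome 3 from 89864059 to 89913196 and Nsg2 on chromosome 11 from 32000463 to 32059202. Id3 lies on chromosome 4 from 136143497 to 136145755, Rsad2 on chromosome 12 from 26442746 to 26456452 and Gzmb on chromosome 14 from 56258838 to 56262260. All 7 are annotated as protein-coding.

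Genes induced by type I interferon were also in more of the 114 cells than of the Tcf7-negative cells. The products of this list block virus replication or regulate the response itself, and they are switched on by a STAT and IRF complex that binds interferon response elements. Of 23 genes at the minimum share, 12 were in more of the 114 cells, none was in fewer, and the list median log2 ratio was 0.59. Over all 850 genes 8.94% were in more cells and 37.1% in fewer, with a median of -0.32. With the batch shift removed, 8.92% of all 841 genes were in more of the 114 cells and 38.2% in fewer. The list count was 12 of 23 with the shift removed, and 12 of 23 with weighting for genes per cell, beside 13.6% of all genes. It was 13 of 22 among cells with fewer than 3 G2 and M phase genes, beside 26.2% of all genes. Among cells with 300 or more genes it was 8, where the share of all genes is not given.

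Single interferon genes were detected in a minority of cells. Rsad2 was in 17 of the 114 cells (14.9%, 8.93 to 22.8%) and 2 of 101 Tcf7-negative cells (1.98%, 0.241 to 6.97%), a ratio of 7.53 (1.79 to 67.2). Slfn5, a growth-regulating interferon gene, was in 38 of the 114 cells (33.3%) and 10 Tcf7-negative cells (9.90%), a ratio of 3.37 (1.65 to 7.58). Ifit1, whose product binds viral RNA, was in 26 (22.8%) and 10 cells (9.90%), a ratio of 2.30 (1.07 to 5.35). In the 65 cells of other lineages Rsad2 was in 10.8% and Ifit1 in 7.69%. The Tcf7-negative share of Rsad2 was below that level and the share in the 114 cells was close to it.

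Of the 23 genes, 11 were not called. Among the other called genes, Oas1a, a sensor of double-stranded RNA, was in 52 of the 114 cells (45.6%) and 23 Tcf7-negative cells (22.8%), and Irf7, a regulator of the response, in 73 (64.0%) and 42 cells (41.6%). Oasl2 was in 11 of the 114 cells (9.65%) and 0 Tcf7-negative cells, where 3 cells would be 2.97%, so it was at least 3.25-fold higher against a floor of 3 cells in that group. Ifit3 was in 16 and 4 cells and Ifit3b in 17 and 2, but these genes are near-identical copies and their reads may be split between them. Usp18, Mx1, Rtp4 and Ifit1bl1 were the other called genes.

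Against the Cxcr5-positive cells the interferon genes ran the other way. Usp18, which limits interferon signalling, was in 17 of the 114 cells (14.9%) and 27 of 88 Cxcr5-positive cells (30.7%), a ratio of 0.486 (0.249 to 0.925). Isg20, an exonuclease gene, was in 36 (31.6%) and 48 cells (54.5%), a ratio of 0.579 (0.365 to 0.911), and Oasl2 in 11 and 19 cells. In all, 6 of 23 genes were in fewer of the 114 cells, none in more, and the median was -0.26, beside 13.7% of all genes in fewer, 8.17% in more and a median of -0.10. With weighting for genes per cell, with the shift removed and among cells with fewer than 3 G2 and M phase genes, 5 of 23 were in fewer. Of all genes 11.4%, 14.0% and 16.7% were in fewer cells there, and 0, 0 and 1 of the list in more. At a detection value of 1.0 the count was 0, so this difference was lost at that reading.

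Promoters of 3 of the called genes are shown because these genes were in more of the 114 cells together and their promoters hold the core of an interferon response element. The motif searched was GAAA, then any 2 bases, then GAAA, on both strands, with overlaps counted. Sequences are from RefSeq on GRCm38.p6, run from 250 bases before to 50 after the gene start on the gene's strand, and have the motif in capitals. They are Ifit1 (chr19:34640639-34640938, plus strand), Ifit3 (chr19:34583279-34583578, plus strand) and Rsad2 (chr12:26456403-26456702, minus strand).
Ifit1: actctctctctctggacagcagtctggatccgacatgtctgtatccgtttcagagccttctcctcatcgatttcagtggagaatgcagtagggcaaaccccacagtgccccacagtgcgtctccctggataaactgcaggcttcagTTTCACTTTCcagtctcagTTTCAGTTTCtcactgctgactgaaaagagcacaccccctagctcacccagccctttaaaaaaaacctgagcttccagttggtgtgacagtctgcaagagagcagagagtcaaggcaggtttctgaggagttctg
Ifit3: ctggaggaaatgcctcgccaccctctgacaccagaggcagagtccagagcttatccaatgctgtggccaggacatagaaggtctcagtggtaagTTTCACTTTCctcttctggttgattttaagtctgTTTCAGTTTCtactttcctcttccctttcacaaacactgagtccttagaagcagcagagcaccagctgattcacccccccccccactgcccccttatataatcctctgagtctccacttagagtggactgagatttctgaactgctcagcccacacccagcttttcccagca
Rsad2: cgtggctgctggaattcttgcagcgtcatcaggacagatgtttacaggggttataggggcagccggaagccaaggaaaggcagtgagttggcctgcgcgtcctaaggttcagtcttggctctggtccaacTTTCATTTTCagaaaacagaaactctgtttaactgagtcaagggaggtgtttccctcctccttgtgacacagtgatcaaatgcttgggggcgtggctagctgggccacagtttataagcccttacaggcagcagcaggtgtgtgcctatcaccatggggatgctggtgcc
Ifit1 and Ifit3 hold the motif at 2 places and Rsad2 at 1, in each case on the strand opposite to the gene. Of the 12 called genes 9 had a promoter sequence, and 7 of these held the motif (77.8%), against 11 of 18 measured genes of the list (61.1%). The motif was in 93 of 1433 measured genes with a promoter sequence (6.49%) and in 1079 of all 27025 genes with one (3.99%). A match is a description of these letters, not a bound site.

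**Figure D2:**
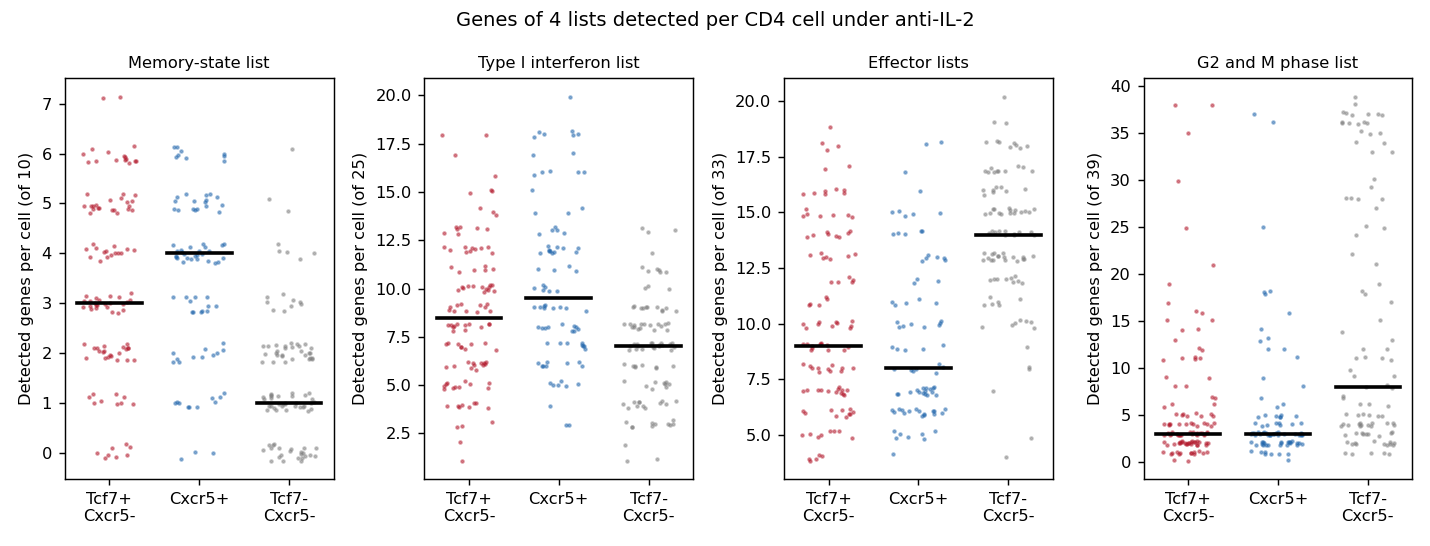
Number of detected genes per cell (y axis) of the naive and memory list (10 genes), the type I interferon list (25), the type 1 effector and cytotoxic lists (33) and the G2 and M phase list (39) in Tcf7-positive Cxcr5-negative, Cxcr5-positive and Tcf7-negative Cxcr5-negative CD4 cells under anti-IL-2; points are cells and lines are medians. Median effector genes were 9 in the Tcf7-positive Cxcr5-negative cells, 8 in Cxcr5-positive and 14 in Tcf7-negative cells.

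Cytotoxic and type 1 effector genes were in fewer of the 114 cells than of the Tcf7-negative cells, but in more than of the Cxcr5-positive cells for part of the list. Gzmb, which encodes granzyme B, was in 71 of the 114 cells (62.3%, 52.7 to 71.2%), 35 of 88 Cxcr5-positive cells (39.8%, 29.5 to 50.8%) and 100 of 101 Tcf7-negative cells (99.0%, 94.6 to 99.97%). With the shift removed the Gzmb shares were 40.4%, 22.7% and 95%, in the same order. In the 65 cells of other lineages Gzmb was in 13.8%.

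Other effector genes kept that order. Klrc1, an NK receptor gene of activated T cells, was in 50 of the 114 cells (43.9%), 23 Cxcr5-positive (26.1%) and 81 Tcf7-negative cells (80.2%), and with the shift removed in 17.5%, 3.41% and 56.4%. Ly6c2, a surface protein gene of effector cells, was in 51 (44.7%), 33 (37.5%) and 88 cells (87.1%), but in 52.3% of the 65 cells of other lineages. Gzma, the granzyme A gene, was in 40 (35.1%), 21 (23.9%) and 68 cells (67.3%). For each of these genes the 114 cells lay between the other groups on the deposited values. With the shift removed Gzma was in 25.4%, 23.9% and 49.5%, with the first 2 groups close together. Among cells with fewer than 3 G2 and M phase genes, Gzma was in 17.5%, 6.67% and 43.8% and Klrc1 in 25%, 23.3% and 68.8%. Ly6c2 was there in 22.5%, 23.3% and 62.5%, so the 114 cells no longer lay between.

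Against the Tcf7-negative cells, 10 of 13 cytotoxic genes were in fewer of the 114 cells and 1, Lamp1, in more, with a list median of -0.90. Over all 850 genes 37.1% were in fewer and 8.94% in more. The 10 included Prf1, the perforin gene, with 9 of the 114 cells (7.89%) and 22 Tcf7-negative cells (21.8%), and Klrg1, with 4 and 16 cells. Among cells with fewer than 3 G2 and M phase genes the count was 4 of 10, with 2 in more. Of all 684 genes there, 19.6% were in fewer and 26.2% in more. Against the Cxcr5-positive cells 5 of 10 cytotoxic genes, Gzmb, Gzmk, Klrd1, Klrc1 and Eomes, were in more of the 114 cells and none in fewer, with a median of 0.59. Of all 783 genes, 8.17% were in more and 13.7% in fewer. Eomes, a transcription factor of cytotoxic cells, was in only 8 and 3 cells, and at a detection value of 1.0 the count was 3.

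Of 13 type 1 genes, 7 were in fewer of the 114 cells than of the Tcf7-negative cells and 1, Tnf, in more, with a median of -0.73, beside 37.1% of all genes in fewer and a median of -0.32. Ifng, the interferon-gamma gene, was in 12 of the 114 cells (10.5%), 13 Cxcr5-positive (14.8%) and 20 Tcf7-negative cells (19.8%), with overlapping intervals. Il12rb2, a receptor chain for IL-12, was in 27 (23.7%), 24 (27.3%) and 52 cells (51.5%), although among cells with 300 or more genes its log2 ratio to the Tcf7-negative cells was 0.07. Against the Cxcr5-positive cells 0 of 11 type 1 genes were called in either direction.

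Ccr2 and Cxcr6, chemokine receptor genes of cells that enter tissue, followed the effector genes. Ccr2 was in 43 of the 114 cells (37.7%, 28.8 to 47.3%), 13 Cxcr5-positive (14.8%) and 72 Tcf7-negative cells (71.3%), a ratio of 2.55 (1.35 to 5.18) over the Cxcr5-positive cells and 0.529 (0.354 to 0.783) over the Tcf7-negative cells. With the shift removed the shares of Ccr2 were 10.5%, 1.14% and 39.6%, lower throughout but in the same order. Cxcr6 was in 71 (62.3%), 45 (51.1%) and 93 cells (92.1%), and with the shift removed in 36%, 35.2% and 83.2%, where the 114 cells and the Cxcr5-positive cells lay close together.

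Among IL-2 receptor and STAT5 target genes, Il2ra and Bhlhe40 were in fewer of the 114 cells than of the Tcf7-negative cells. Il2ra, the alpha chain of the IL-2 receptor, was in 11 of the 114 cells (9.65%, 4.92 to 16.6%), 10 Cxcr5-positive (11.4%) and 29 Tcf7-negative cells (28.7%, 20.1 to 38.6%), a ratio of 0.336 (0.151 to 0.693) to the Tcf7-negative cells. Bhlhe40, a transcription factor gene of inflammatory T cells, was in 49 (43.0%), 16 (18.2%) and 79 cells (78.2%), and with the shift removed in 26.3%, 12.5% and 71.3%. Il2 itself was in 4 of the 114, 5 Cxcr5-positive and 2 Tcf7-negative cells, and no difference was detectable at this depth.

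Against the Tcf7-negative cells 4 of 9 genes were in fewer of the 114 cells (Il2ra, Cish, Bhlhe40 and Tnfrsf9), 1 was in more (Pim2), and the median was -0.32, as over all genes. Under the alternatives the list lay below all genes, with medians of -0.84 against -0.30 with the shift removed (5 of 9 in fewer and 0 in more), -0.37 against -0.06 with weighting for genes per cell, and -0.55 against -0.05 among cells with fewer than 3 G2 and M phase genes. Cish, a feedback inhibitor of cytokine signalling, was in 9 of the 114 cells (7.89%), 2 Cxcr5-positive (2.27%) and 16 Tcf7-negative cells (15.8%). Against the Cxcr5-positive cells Cish and Bhlhe40 were in more of the 114 cells and Tnfrsf9 in fewer, with 15 of the 114 (13.2%) and 22 of 88 cells (25%). Pim2, a survival kinase gene, was in 78 of the 114 cells (68.4%) and 44 Tcf7-negative cells (43.6%), but was not called with the shift removed.

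Of 15 follicular helper genes outside the choice, 6 were in fewer of the 114 cells than of the Cxcr5-positive cells. Of all 783 genes in that comparison 13.7% were in fewer. Among cells with fewer than 3 G2 and M phase genes, 2 of 14 were in fewer and 1 in more, beside 16.7% and 19.1% of all genes, so the list did not stand apart there. Tox2, a regulator of the follicular helper state, was in 33 of the 114 cells (28.9%), 42 Cxcr5-positive (47.7%) and 12 Tcf7-negative cells (11.9%). Izumo1r, which encodes folate receptor 4, was in 27 (23.7%), 36 (40.9%) and 10 cells (9.90%). Both ratios to the Cxcr5-positive cells had intervals just below 1, at 0.607 (0.372 to 0.980) for Tox2 and 0.579 (0.338 to 0.981) for Izumo1r. The Tox2 ratio was 0.715 with the shift removed and 0.797 among cells with fewer than 3 G2 and M phase genes, so its call was lost in both. Izumo1r kept its call in both, at 0.609 and 0.529.

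Sostdc1, Pdcd1 and Il21 were not called between the 114 cells and the Cxcr5-positive cells. Sostdc1, a secreted antagonist gene of follicular helper cells, was in 28 of the 114 cells (24.6%), 25 Cxcr5-positive (28.4%) and 9 Tcf7-negative cells (8.91%). Pdcd1, the PD-1 gene, was in 74 (64.9%), 69 (78.4%) and 74 cells (73.3%), and Il21, a cytokine gene of follicular helper cells, in 9, 8 and 8 cells. The 6 called genes were Tox2, Izumo1r, Angptl2, Cebpa, Pou2af1 and Rgs16, and the list median was -0.46. Against the Tcf7-negative cells 6 of 14 were in more and Rgs16 in fewer, with a median of 0.23, beside 8.94% of all genes in more and 37.1% in fewer. Ikzf2, the Helios gene, was in 29 of the 114 cells (25.4%) and 40 Cxcr5-positive cells (45.5%), a call lost, with a log2 ratio of 0.05, among cells with fewer than 3 G2 and M phase genes.

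**Figure D3:**
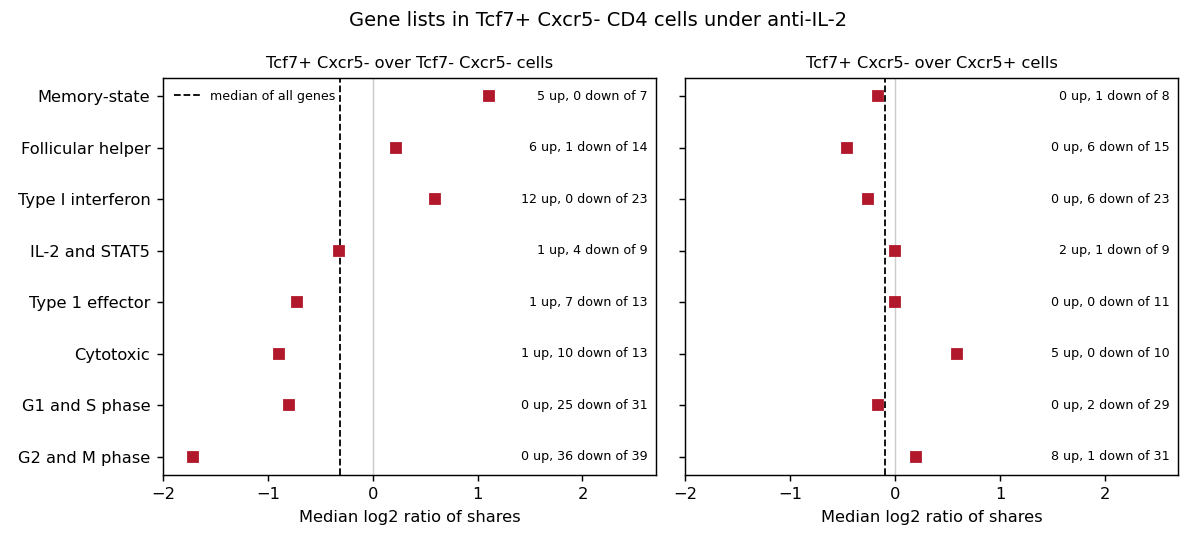
Median log2 ratio of shares (x axis) for 8 gene lists (y axis) in Tcf7-positive Cxcr5-negative cells over Tcf7-negative Cxcr5-negative cells (left) and over Cxcr5-positive cells (right) under anti-IL-2; dashed lines are medians of all genes, and the words in each panel count genes in more (up) and in fewer cells (down). The G2 and M phase list stood at -1.72 on the left and 0.20 on the right, and the cytotoxic list at -0.90 and 0.59.

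Cell cycle genes were in fewer of the 114 cells than of the Tcf7-negative cells. Mki67, a marker of cycling cells, was in 24 of the 114 cells (21.1%, 14.0 to 29.7%), 21 Cxcr5-positive (23.9%) and 48 Tcf7-negative cells (47.5%, 37.5 to 57.7%). Plk1, a mitotic kinase gene, was in 6 (5.26%), 5 (5.68%) and 33 cells (32.7%), and Ccna2, the cyclin A2 gene, in 15 (13.2%), 14 (15.9%) and 45 cells (44.6%). The 114 cells and the Cxcr5-positive cells had overlapping intervals for all 3 genes.

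Of 39 G2 and M phase genes, 36 were in fewer of the 114 cells than of the Tcf7-negative cells, with a median of -1.72. Of 31 G1 and S phase genes 25 were in fewer, with a median of -0.80. Over all 850 genes 37.1% were in fewer. After weighting for genes per cell 28 of the 39 G2 and M phase genes were in fewer, beside 24.4% of all genes. The G1 and S phase count was then 9 of 31, near that share of all genes, with 2 in more. Against the Cxcr5-positive cells 8 of 31 G2 and M phase genes were in more of the 114 cells and 1 in fewer, with a median of 0.20. There 2 of 29 G1 and S phase genes were in fewer, and of all 783 genes 8.17% were in more and 13.7% in fewer. Per cell, the median number of detected G2 and M phase genes was 3 in the 114 cells, 3 in Cxcr5-positive cells and 8 in Tcf7-negative cells.

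The difference lay in cells with many cycle genes. Of the 114 cells 22 (19.3%, 12.5 to 27.8%) had 10 or more of the 39 genes, against 13 of 88 Cxcr5-positive (14.8%) and 47 of 101 Tcf7-negative cells (46.5%, 36.6 to 56.7%). With a lower bar of 3 or more genes the shares were 64.9%, 65.9% and 84.2%. Detected genes per cell moved with these shares, and their part in them was not tested.

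Other lists held fewer calls. Of 11 inhibitory receptor genes 4 were in fewer of the 114 cells than of the Tcf7-negative cells, among them Entpd1 and Havcr2, a share close to the 37.1% of all genes, and 2, Tox and Tox2, were in more. Havcr2, the TIM-3 gene, was in 22 of the 114 cells (19.3%) and 44 Tcf7-negative cells (43.6%), but with the shift removed in 2.63% and 19.8%, and among cells with 300 or more genes its log2 ratio was 0.24. Bcl2, an anti-apoptotic gene, was in 61 of the 114 cells (53.5%), 47 Cxcr5-positive (53.4%) and 43 Tcf7-negative cells (42.6%), and was not called. Ahr was in 11 of the 114 cells (9.65%), 1 Cxcr5-positive (1.14%) and 8 Tcf7-negative cells (7.92%), a ratio of 8.49 (1.23 to 366) to the Cxcr5-positive cells that rests on 1 cell. With the shift removed, 9.32% of 762 genes were in more of the 114 than of the Cxcr5-positive cells and 14.0% in fewer.

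The 114 cells varied among themselves. Of the 42 cells with Ccr7, 20 had Il6ra (47.6%) and 28 had Id3 (66.7%), against 18 (25%) and 31 (43.1%) of the 72 cells without it. Gzma was in 7 of the 42 (16.7%) and 33 of the 72 cells (45.8%), Klrc1 in 10 (23.8%) and 40 (55.6%), and Gzmb in 21 (50%) and 50 (69.4%). The cells with and without Ccr7 had similar depth, with medians of 255 and 265 genes. On the deposited values, intervals of the shares did not overlap for Gzma and Klrc1, and they overlapped for Il6ra, Id3 and Gzmb. With the shift removed Gzma was in 14.3% and 31.9% and Klrc1 in 7.14% and 23.6%, with overlapping intervals. Gzmb was then in 19.05% and 52.8% and Id3 in 73.8% and 44.4%, with intervals that did not overlap. So the order held in both readings, but which genes had separate intervals did not. Il7r was in 90.5% and 68.1%, but in 42.9% and 40.3% with the shift removed.

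Detection of Bhlhe40 divided the 114 cells in another way. Of the 49 cells with Bhlhe40, 8 had Il6ra (16.3%) and 5 had Sostdc1 (10.2%), against 30 (46.2%) and 23 (35.4%) of the 65 cells without it. Gzmb was in 43 (87.8%) and 28 cells (43.1%), and Ccr2 in 31 (63.3%) and 12 (18.5%), with median depths of 264 and 262 genes. With the shift removed only 30 of the 49 cells (61.2%) still had Bhlhe40, so the split itself depends on the reading. In the groups as chosen, Ccr2 was then in 18.4% and 4.62%, with overlapping intervals. Gzmb was in 59.2% and 26.2%, with intervals that did not overlap. Other genes did not follow: Nsg2 was in 28 (57.1%) and 39 cells (60%), Gzma in 19 (38.8%) and 21 (32.3%) but with the shift removed in 20.4% and 29.2%, and Il7r with the shift removed in 57.1% and 29.2%.

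Cells with 3 or more G2 and M phase genes held the effector genes more often. Il12rb2 was in 26 of 74 such cells (35.1%) and 1 of 40 others (2.50%), Klrc1 in 40 (54.1%) and 10 (25%), and Ccr2 in 35 (47.3%) and 8 (20%). Il6ra was in 19 of the 74 (25.7%) and 19 of the 40 cells (47.5%). Depth moved with this split, with medians of 286.5 and 245.5 genes, and its part was not tested. Gzmb was in 16 of the 26 cells with Ifit1 (61.5%) and 55 of the 88 without (62.5%), whereas Gzma was in 13 (50%) and 27 (30.7%) and Rsad2 in 7 (26.9%) and 10 (11.4%).

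Under tacrolimus the same rule found 32 of 294 CD4 cells (10.9%, 7.57 to 15.0%). The tacrolimus values are not batch-shifted, so shares are not compared between the libraries, and each set of cells is given against its own other CD4 cells. The 32 cells had a median of 281.5 detected genes, against 399.5 in the other 262 CD4 cells, a wider depth gap than under anti-IL-2. Ccr7 was in 9 of the 32 (28.1%) and 7 of the 262 cells (2.67%), Nsg2 in 12 (37.5%) and 14 (5.34%), and Id3 in 16 (50%) and 25 (9.54%). Gzmb was in 16 (50%) and 237 cells (90.5%). Of 880 genes at the minimum share 7.27% were in more of the 32 cells and 21.8% in fewer, and against the 250 Tcf7-negative cells 6.64% of 874 genes were in more and 23.3% in fewer.

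**Figure D4:**
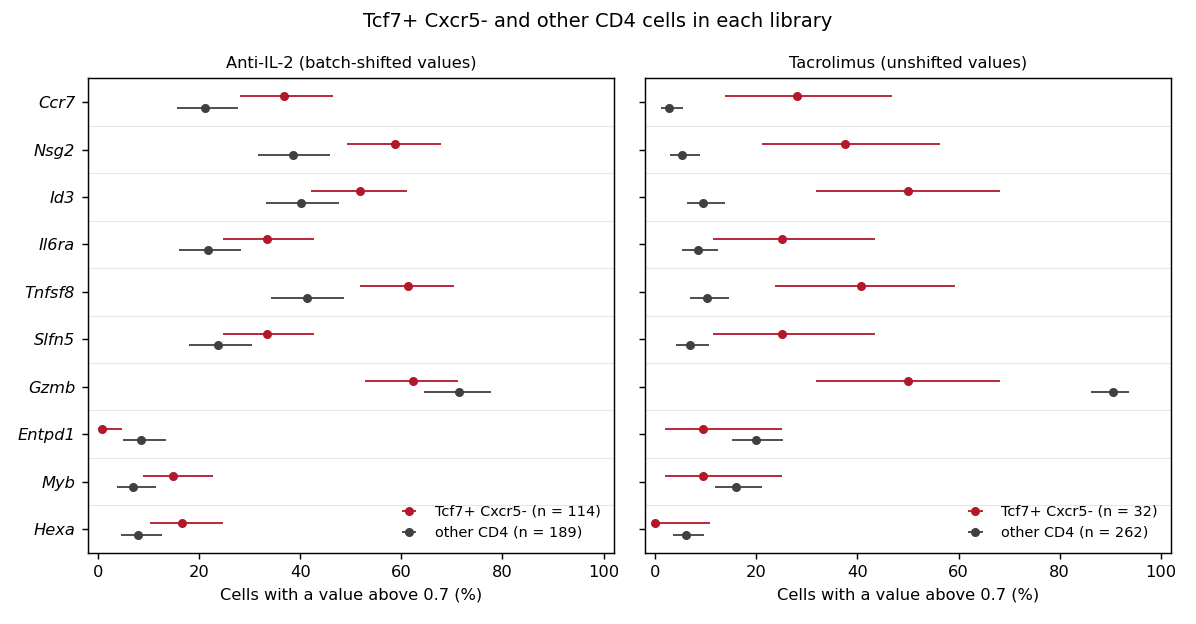
Share of cells with a value above 0.7 (x axis, percent) for 10 genes (y axis) in Tcf7-positive Cxcr5-negative and other CD4 cells under anti-IL-2 (left) and tacrolimus (right), with exact 95% intervals as bars. Ccr7 is at 36.8% and 21.2% on the left and 28.1% and 2.67% on the right, and Myb is at 14.9% and 6.88% on the left and 9.38% and 16.0% on the right.

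Of the 19 genes in more of the 114 cells under anti-IL-2, 16 reached the minimum share under tacrolimus, where 8 were also in more of the 32 cells, 2 in fewer and 6 neither. The 2 were Myb and Hexa, and Hexa was in 0 of 32 cells, too few to show a lower share. Of the 228 in fewer cells, 224 reached it, with 97 in fewer, 8 in more and 119 neither. The other CD4 cells differed in make-up, since 88 of 189 had Cxcr5 under anti-IL-2 and 12 of 262 under tacrolimus. Of the 16 interferon genes at the minimum share 7 were in more of the 32 cells than of the other 262, none in fewer, and the list median was 0.56.

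CD8 cells of the anti-IL-2 library that had Tcf7 shared part of the pattern. Ccr7 was in 27.8% of 176 Tcf7-positive and 4.60% of 609 Tcf7-negative CD8 cells, and Nsg2 in 39.2% and 4.76%, whereas Gzmb was in 98.3% and 99.5%.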

How the data were processed

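Single spleen cells of 2 libraries, 1 per treatment, were analysed from 2 tables of 2000 genes. Seurat, Cell Ranger 3.1.0 and the mm10 build are listed, per the submitters' processing notes. Values are natural log levels that the authors deposited after scaling each cell. Of the anti-IL-2 values 13.9% were below 0 and 42.0% exactly 0, as in batch-integrated data, and of the tacrolimus values 0 were below 0 and 100% came out as whole UMIs at a scale of 50000 (tolerance 0.001). The tacrolimus table also held 308 copied anti-IL-2 columns, which were used once.

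A value above 0.7 was read as a detection. The alternative reading removed the level of cells without a UMI, taken per gene from the 30 nearest cells in 20 principal components. Cells with under 200 genes (211 anti-IL-2 cells) were left out. No doublet caller was run on the shifted values. Instead, 3 CD4 cells had over 2 times the CD4 median of genes, and 0 were Tcf7-positive Cxcr5-negative. There were 0 mitochondrial genes. Other-lineage cells for free RNA had no Cd4, Cd8a or Cd8b1 and at least 2 B, plasma, myeloid or erythroid markers.

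Shares, exact intervals and ratios were computed in Python 3.11.15 with scipy 1.17.1, with 0.5 cell added to each count for log2 ratios. Named genes were the 12 highest and 12 lowest ratios to all other CD4 cells, called list genes and up to 4 other list genes most detected in the Tcf7-positive Cxcr5-negative cells, and the 10 highest phi coefficients. Other genes named were chosen after their values were seen. The cells, the comparisons and the gene lists were chosen with earlier results of these data known. Some genes counted in the lists are not reported here by name.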

Additional observations from a re-analysis of the deposited data

Results flagged for a closer look

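Myb had ratios on opposite sides of 1 in the 2 libraries, and the difference was not tested. Hexa had a higher share under anti-IL-2, and its 0 cells under tacrolimus are too few to show a lower one. The log2 ratio of Tcf7-positive Cxcr5-negative cells over other CD4 cells was 1.104 for Myb under anti-IL-2 (17 of 114 and 13 of 189 cells) and -0.569 under tacrolimus (3 of 32 and 42 of 262 cells). For Hexa it was 1.061 under anti-IL-2 (19 of 114 and 15 of 189 cells) and -2.011 under tacrolimus (0 of 32 and 16 of 262 cells). The 0 of 32 cells allow a share of up to 9.38%, above the 6.11% of the other CD4 cells, so the last value, which depends on the 0.5 cell added, is no bound.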

How the results depend on the processing

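Against the Tcf7-negative cells, the naive and memory count of 5 stayed between 4 and 6, and the type I interferon count of 12 between 8 and 14, under every alternative run for the lists. The share of all genes in more cells moved as well, to 13.6% with weighting and 26.2% among cells with fewer than 3 G2 and M phase genes. Removing the batch shift alone moved counts of several lists against all other CD4 cells. In more cells were 2 interferon genes, against 1, and 2 naive and memory genes, against 3. In fewer cells were 5 of 11 cytotoxic genes, against 2 of 11, and 7 of 12 type 1 genes, against 5 of 13. G2 and M phase genes in fewer cells were 35, against 31, and G1 and S phase genes 18, against 16. Of all genes 29.7% were then in fewer cells, against 27.1%. The causes of the moves under the other alternatives were not tested. No paired analysis was possible because there was 1 library per treatment, and for the same reason no library could be left out. Depth limits all shares, since a gene in 3 or fewer cells of both groups has no ratio.

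At a detection value of 0.5, 76.4% of the 114 cells counted as dividing, and against all other CD4 cells 1 naive and memory gene and 2 interferon genes were in more cells and 4 cytotoxic genes in fewer, while against Cxcr5-positive cells 4 G2 and M phase genes were in more. At 1.0, 58 genes were in more of the 114 than of all other CD4 cells, with 5 naive and memory, 10 interferon and 6 fewer-cell cytotoxic genes. Against Cxcr5-positive cells 97 genes were then in more cells, with 3 cytotoxic and 14 G2 and M phase genes, and 0 interferon genes in fewer. The number of genes at the minimum share is not given at 0.5 or 1.0, so these list counts cannot be set against the share of all genes.

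With a minimum of 100 genes per cell, 54.0% counted as dividing, 1 naive and memory gene was in more cells than in all other CD4 cells, and against Cxcr5-positive cells 39 genes were in more, with 2 cytotoxic and 4 G2 and M phase genes. With no minimum these values were 53.3%, 1, 41, 3 and 4. With 300 genes, 29 cells under anti-IL-2 and 13 under tacrolimus were left, and 96.6% of the 29 counted as dividing. Against all other CD4 cells 53 genes and 5 interferon genes were then in more cells, and 20 G2 and M phase, 3 G1 and S phase, 2 type 1 and 4 cytotoxic genes in fewer. Against Cxcr5-positive cells 166 genes were in more and 195 in fewer, with 18 G2 and M phase genes in more and 10 follicular and 12 interferon genes in fewer. Against Tcf7-negative cells 3 follicular genes were in more, and 3 type 1, 5 cytotoxic and 5 G1 and S phase genes in fewer. Havcr2 and Il12rb2 changed sign there, with log2 ratios of 0.429 and 0.114 against all other CD4 cells and 0.240 and 0.067 against Tcf7-negative cells. For these minimums of genes per cell the number of genes at the minimum share is not given. The list counts under them, including those from the 29 cells, therefore cannot be set against the share of all genes.

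Weighted for genes per cell, 121 of 842 genes (14.4%) were in fewer of the 114 than of all other CD4 cells, and 3.09% were in more. The 121 held 18 G2 and M phase, 2 G1 and S phase and 3 type 1 genes, and 1 naive and memory gene was in more. Against Tcf7-negative cells 116 of 850 genes (13.6%) were in more and 207 (24.4%) in fewer, with 9 of 31 G1 and S phase genes in fewer. Among cells with fewer than 3 G2 and M phase genes, 87 of 660 genes (13.2%) were in more and 107 (16.2%) in fewer than in all other CD4 cells. There 1 naive and memory and 2 interferon genes were in more, and 3 G2 and M phase, 3 G1 and S phase, 2 type 1 and 1 cytotoxic gene in fewer. Against Cxcr5-positive cells 127 of 666 genes (19.1%) were in more and 16.7% in fewer, with 1 G2 and M phase gene in more and 2 follicular genes in fewer. Ikzf2 changed sign there, to 0.051. Against Tcf7-negative cells 179 of 684 genes (26.2%) were in more and 134 (19.6%) in fewer. In fewer cells were 4 of 10 cytotoxic, 4 of 17 G1 and S phase and 2 of 5 G2 and M phase genes. Zbtb20 and Nrn1 changed sign, to -0.005 and -0.088 against all other CD4 cells and -0.429 and -0.959 against Tcf7-negative cells.

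Without the Cxcr5-positive cells, 76 genes were in more cells than in the other CD4 cells, with 5 naive and memory and 12 interferon genes, and 25 G1 and S phase and 10 cytotoxic genes were in fewer. With a minimum share of 10%, 11 genes were in more cells than in all other CD4 cells, 31 in more and 58 in fewer than in Cxcr5-positive cells, and 45 in more than in Tcf7-negative cells. With no minimum share these comparisons gave 192 and 484, 302 and 229, and 239 and 529 genes in more and in fewer cells. Of 1411 values of single named genes under alternatives, 1320 stayed within the interval of their ratio.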

Other observations

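Genes outside the lists described so far were mostly not called. Of 13 genes induced by interferon-gamma, 2 (Iigp1 and Tgtp1) were in more of the Tcf7-positive Cxcr5-negative cells than of the Tcf7-negative cells and 3 (Gbp3, Irf8 and Serpina3g) in fewer, with a median log2 ratio of 0.08. Of 24 growth and metabolism genes 6 were in fewer, among them Phgdh, Shmt1 and Shmt2, and none in more, with a median of -0.15, a smaller share than the 37.1% of all genes in fewer cells. Of 17 early genes of T cell receptor signalling, Egr1 was in more cells and Nr4a1, Nr4a2, Ier3 and Dusp5 in fewer, with a median near 0. Over all 850 genes of this comparison the median was -0.32.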
